A study of Mus musculus with 19 samples.

Results

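The comparison asked whether loss of Gramd1c changed liver gene expression differently on 2 levels of dietary cholesterol. Its measure is the interaction, which is the Gramd1c-/- minus Gramd1c+/+ difference on high cholesterol minus the same difference on low cholesterol, on the log2 scale. A positive interaction means that a transcript was relatively higher in Gramd1c-/- mice on high than on low cholesterol. All 19 of the 19 liver libraries in the series entered it, in 4 groups taken from the sample titles. Of the Gramd1c+/+ mice, 5 ate the low cholesterol diet (0.02%, by weight) and 5 the high cholesterol diet (0.2%), and of the Gramd1c-/- mice 4 and 5 did. All mice were females on the C57BL/6N background, began their diet at 8 weeks of age and were kept on it for 4 weeks. The knockout is global and is a knockout-first allele, Gramd1c tm1a(KOMP)Wtsi, from a strain whose name also carries the agouti allele A tm1Brd, and controls were littermates from crosses of heterozygotes. Each library came from 1 mouse.

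Gramd1c encodes Aster-C, a protein of the endoplasmic reticulum whose family (also Aster-A and Aster-B, from Gramd1a and Gramd1b) moves accessible cholesterol from the plasma membrane to the endoplasmic reticulum. Cholesterol that reaches this membrane holds SREBP2, the transcription factor of cholesterol synthesis and uptake, in an inactive form, so dietary cholesterol lowers hepatic transcripts of that pathway. Oxidised sterols activate LXR, which drives sterol efflux and fatty acid synthesis, and the liver also disposes of sterols as bile acids and as sulfate conjugates. Many hepatic cytochrome P450, sulfotransferase and urinary protein genes differ between the sexes of the mouse and follow the pattern of growth hormone release.

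Sequenced depth was even, at 27149972 to 34669648 counts per mouse. The tissue field of the labels names gonadal adipose tissue and the cell type field names liver. Albumin, a hepatocyte product, held 5.25 to 9.17% of the counts of every mouse, so the libraries carried the defining liver transcript. Gramd1c was at 9.56 to 15.99 TPM (a level scaled to library size and transcript length) in the 10 Gramd1c+/+ mice and at 1.07 to 3.61 TPM in the 9 Gramd1c-/- mice, with no overlap. Single mice are named below as wild-type (Gramd1c+/+) or knockout (Gramd1c-/-) with their replicate number and diet. A set of 3 libraries stood apart, and values with and without them are given where they carry a result. Knockout mouse 5 on the high diet had a score of 83.1 on the first principal component (24.4% of the variance) against -46.7 to 38.4 in the others. Wild-type mouse 2 on the low diet held 579.9 TPM over 7 adrenal markers, against at most 3.81 TPM in any other mouse, and 138 TPM over 6 adipocyte markers, against at most 8.19 TPM. Knockout mouse 3 on the high diet held 216 TPM over 6 bile duct markers and 59.0 TPM over 6 pancreas markers, against at most 85.5 and 2.18 TPM elsewhere.

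No gene showed an interaction past the threshold. Of 15016 genes that entered the edgeR quasi-likelihood fit, 0 (0.0%) passed an adjusted p (Benjamini-Hochberg) of 0.05, and the smallest adjusted p was 0.99993. DESeq2 and limma-voom also called 0 genes. The smallest adjusted p was 0.315 in DESeq2, for Cyp3a16, and over the edgeR fits that left out mice it was as low as 0.353, for Susd4 without knockout mouse 5 on the high diet. An unadjusted p below 0.05 was found for 250 genes (1.66%), of which 150 (0.999%) had a positive and 100 (0.666%) a negative interaction, while a uniform spread of p would give 750.8. Without knockout mouse 5 on the high diet the number was 427, in a fit whose filter was applied anew and may have kept another number of genes. The p-values measure the spread between mice, since each mouse gave 1 library.

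**Figure D1:**
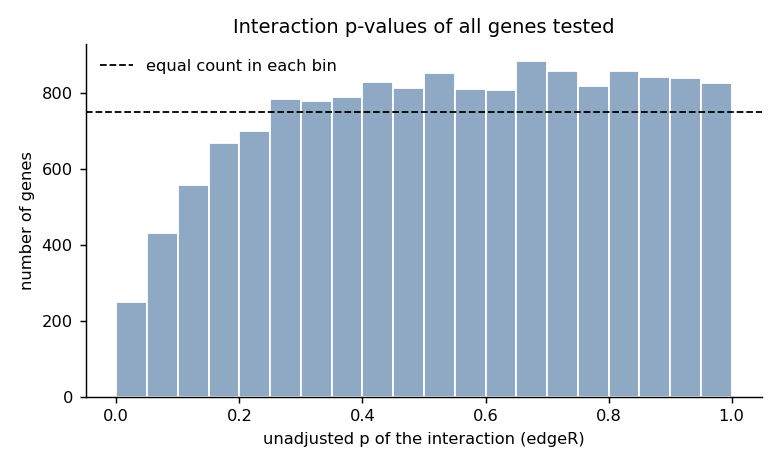
Unadjusted edgeR p of the genotype by diet interaction for 15016 genes, in 20 bins of equal width along the horizontal axis, with the number of genes on the vertical axis and a dashed line at the 750.8 genes per bin of a uniform spread. The leftmost bin holds 250 genes and lies below the line.

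Intervals show what sizes of interaction these mice could limit. The median size of the interaction was 0.17 on the log2 scale, and the median 95% half-width was 0.58, with quartiles of 0.44 and 0.91. For 9979 genes (66.5%) the whole interval lay between -1 and 1, which is a factor of 2 in either direction. For the remaining genes an interaction larger than that was not excluded by the interval. Across genes, the genotype effects on the separate diets correlated at r = 0.10 (Spearman's rho 0.09, 15016 genes), and the diet effects in the separate genotypes at r = 0.50 (rho 0.48). These are descriptions over genes, which are not independent, and each pair of effects used different mice. Relative to their own diet, the Gramd1c-/- and Gramd1c+/+ mice differed in 1 gene on low (0.00666%) and 1 gene on high cholesterol (0.00666%), which was Gramd1c on both diets.

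**Figure D2:**
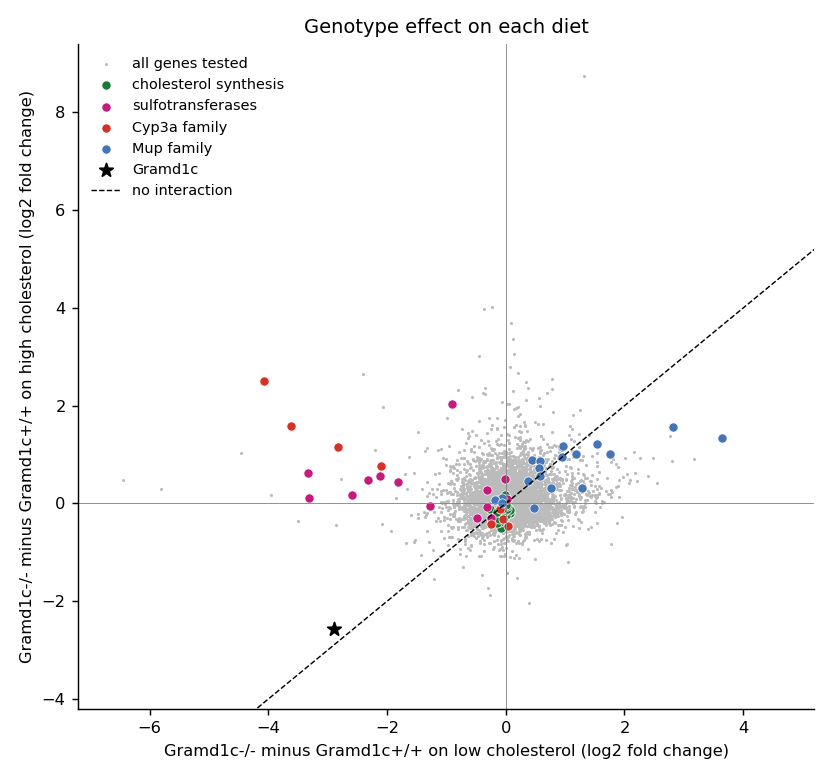
Log2 fold change between the genotypes on low cholesterol (horizontal) and on high cholesterol (vertical) for 15016 genes in grey, with 4 gene lists in colour and Gramd1c as a star. The dashed line marks an equal effect on both diets. Gramd1c lies close to it at -2.89 and -2.58, cholesterol synthesis genes lie near the centre, and 4 Cyp3a genes and several sulfotransferases lie to the left of it, with Cyp3a16 at -4.08 and 2.498.

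The response to dietary cholesterol was called in 66 genes (0.44%) of Gramd1c+/+ mice and 49 genes (0.326%) of Gramd1c-/- mice. They came to 74 different genes, 41 of them called in both genotypes, and all 74 had the same direction of the diet effect in both. Of the 25 called in Gramd1c+/+ mice alone and the 8 called in Gramd1c-/- mice alone, none had a called interaction, so passing the threshold in 1 genotype does not show a different response. In the 74 genes the median size of the interaction was 0.26 with a median half-width of 0.63. An unadjusted interaction p below 0.05 was found for 6 of them, Gm44202, Gm49759, Gm6781, Mycn, 3110045C21Rik and Rnf145. These 6 were named after their values were seen, and Gm44202 was near the floor on low cholesterol, at a mean of 0.037 TPM in Gramd1c-/- mice. The calls in Gramd1c+/+ mice include the adrenal genes Hsd3b1 and Cyp21a1, whose level on low cholesterol was 198 and 191 TPM in wild-type mouse 2, the library with adrenal transcripts, and below 1 TPM in the other 4 mice. Without that mouse 42 genes were called in Gramd1c+/+ mice, and without wild-type mouse 2 on the high diet 41. The filter was applied anew in these 2 fits, so the number of genes tested may differ. DESeq2, given the same 15016 genes as the main fit, called 111 genes in Gramd1c+/+ and 94 in Gramd1c-/- mice.

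Gramd1c itself was reduced on both diets, and the interaction was small beside its error. On low cholesterol it was at 10.9, 11.6, 10.4, 12.3 and 15.99 TPM in Gramd1c+/+ mice and at 1.87, 2.04, 1.45 and 1.25 TPM in Gramd1c-/- mice. On high cholesterol the values were 11.7, 9.56, 9.66, 11.5 and 10.8 TPM against 1.07, 1.58, 1.67, 1.27 and 3.61 TPM. The highest Gramd1c-/- value was that of replicate 5, and the genotypes did not overlap on either diet. The interaction was 0.31 (standard error 0.38, 95% interval -0.48 to 1.10), and it was -0.14 without replicate 5, so its sign rests on that mouse. Gramd1a had an interaction of 0.38 (standard error 0.34) that was -0.02 without the same mouse, whose 8.62 TPM lay above the 3.03 to 4.36 TPM of its group. Gramd1b, at 0.53 to 3.47 TPM, had an interaction of 1.07 (-0.03 to 2.17), with its highest value in wild-type mouse 2 on the low diet, the library with adrenal transcripts, and 0.08 without the 3 libraries that stood apart.

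Genes of sterol transfer other than the Asters gave no gene with an unadjusted p below 0.05. This list of 13 tested genes held the 3 Asters, the START proteins Stard3, Stard4 and Stard5, the lysosomal exporters Npc1 and Npc2, and the esterifying enzymes Soat1 and Soat2. Its median interaction was 0.02, with 7 positive, beside a median of 0.02 and 52.9% positive over all genes tested. Among the members the interval lay within -1 to 1 for 8.

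Transcripts of cholesterol synthesis were lower under high dietary cholesterol in both genotypes. Sqle, squalene epoxidase, was at 43.4, 51.8, 57.6, 43.9 and 25.5 TPM in Gramd1c+/+ and at 34.1, 46.0, 56.8 and 38.2 TPM in Gramd1c-/- mice on low cholesterol. On high cholesterol it was at 1.62, 2.22, 1.93, 2.03 and 1.92 TPM against 1.99, 1.38, 2.58, 1.76 and 1.56 TPM. Every mouse on low cholesterol was above every mouse on high cholesterol, and the genotypes overlapped on each diet. Over all genes, the diets were apart in this way for 1.03% in Gramd1c+/+ and 0.773% in Gramd1c-/- mice, and the reverse held for 0.693% and 2.68%. The interaction of Sqle was -0.14 (standard error 0.28, 95% interval -0.73 to 0.45). That of Hmgcs1, the synthase that feeds the mevalonate pathway, was -0.13 (-0.78 to 0.52), and that of Dhcr7, the last reductase of the pathway, -0.28 (-0.91 to 0.34). The sign for Sqle turned when wild-type mouse 5 or knockout mouse 3 on the low diet was left out, and the sign for Hmgcs1 turned without the former.

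Of the 20 tested genes of cholesterol synthesis, 18 had a negative interaction, beside 47.1% of all genes, and the median was -0.17. None had an unadjusted p below 0.05. The smallest p in the list were those of the sterol demethylation genes Msmo1 (-0.41, 95% interval -0.98 to 0.15) and Nsdhl (-0.28, -0.69 to 0.13), and of the thiolase Acat2 (-0.28, -0.68 to 0.12). For 18 of the 20 the interval lay within -1 to 1. Most of these genes responded to the diet. In Gramd1c+/+ mice 18 of the 20 were called for diet, beside 0.44% of all genes, and in Gramd1c-/- mice 18, beside 0.326%. The median diet effect was -1.96 and -2.16 in these genotypes, and the list median of the interaction ranged from -0.26 to -0.05 over all settings tried.

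Other SREBP2 targets gave no gene with an unadjusted p below 0.05. Of the 9 tested genes of this list 3 were positive, the median was -0.20, and 8 intervals lay within -1 to 1. Of 10 genes that control SREBP processing, Rnf145, a ubiquitin ligase that acts on the HMG-CoA reductase and on SCAP, had -0.38 (standard error 0.18, unadjusted p = 0.0495 in edgeR). Its diet effect was 0.61 in Gramd1c+/+ mice and 0.24 in Gramd1c-/- mice.

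LXR targets gave a divided picture without a called gene. Abcg8, which with Abcg5 exports sterol into bile, was at 94.9, 88.0, 101, 77.0 and 75.8 TPM in Gramd1c+/+ and 109, 104, 68.4 and 97.4 TPM in Gramd1c-/- mice on low cholesterol. The high diet values were 160, 116, 66.6, 183 and 134 TPM against 80.2, 85.1, 115, 129 and 82.2 TPM. The genotypes overlapped on both diets. The interaction was -0.59 (-1.13 to -0.04, unadjusted p = 0.0352) for Abcg8 and -0.57 (-1.16 to 0.02) for Abca1, the exporter of cholesterol to HDL. Abcg8 and Abcg5 lie on opposite strands with overlapping spans, and without a stated strand setting their reads may not be separable. Over the 12 tested genes 6 were positive and the median was -0.02. Of 14 fatty acid synthesis genes 4 were positive with a median of -0.12, and Elovl6, the elongase of palmitate, had -0.65 (-1.17 to -0.13, unadjusted p = 0.0169).

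Among Cyp3a genes was the smallest p of the comparison, that of Cyp3a16. The subfamily encodes monooxygenases of steroids and foreign compounds, and Cyp3a16, Cyp3a41a, Cyp3a41b and Cyp3a44 are forms that are higher in female than in male mouse liver. They lie on the minus strand of chromosome 5 of GRCm38, Cyp3a16 at chr5:145436309-145469723, Cyp3a41b at chr5:145558664-145584730, Cyp3a41a at chr5:145694049-145720136 and Cyp3a44 at chr5:145773983-145805874. The study singled out these 4 genes, and the other genes of its 22-gene list, partly for their values on low cholesterol in these same mice, so the interaction of the list is not independent evidence of a direction.

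The 250 bases upstream of the transcript start are shown for 3 of the 4 genes, all 4 of which had a positive interaction. Whether these bases have a part in it was not tested. They come from RefSeq on GRCm38.p6, are written 5′ to 3′ on the minus strand, and capitals mark the letters AGGTCA, a nuclear receptor half-site motif.
Cyp3a16, chr5:145469724-145469973: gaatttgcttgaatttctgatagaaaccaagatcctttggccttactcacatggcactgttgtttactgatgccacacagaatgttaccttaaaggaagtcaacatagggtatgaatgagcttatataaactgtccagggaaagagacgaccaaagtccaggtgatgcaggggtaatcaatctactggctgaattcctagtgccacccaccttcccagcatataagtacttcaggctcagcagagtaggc
Cyp3a41a, chr5:145720137-145720386: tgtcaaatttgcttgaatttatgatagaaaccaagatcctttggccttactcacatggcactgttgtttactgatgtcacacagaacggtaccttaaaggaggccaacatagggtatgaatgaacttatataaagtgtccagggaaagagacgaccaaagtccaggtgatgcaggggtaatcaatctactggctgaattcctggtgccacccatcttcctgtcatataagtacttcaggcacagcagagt
Cyp3a44, chr5:145805875-145806124: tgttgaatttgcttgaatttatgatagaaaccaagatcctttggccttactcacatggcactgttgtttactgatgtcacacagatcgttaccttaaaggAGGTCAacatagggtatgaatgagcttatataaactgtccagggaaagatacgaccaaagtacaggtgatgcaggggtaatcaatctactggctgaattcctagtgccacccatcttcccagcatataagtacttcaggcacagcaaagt

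Any pair of the 4 promoters, taken over 300 bases that reach 50 bases past the start, was 90.1 to 97.3% identical, and Cyp3a41b was 97.3% identical to Cyp3a41a. AGGTCA, searched on both strands, was found in Cyp3a44 alone, starting at base -150, and in 16.3% of 32851 mouse promoters of the same length. The STAT5 motif TTCNNNGAA, which reads the same on both strands, was in none of the 4 and in 8.30% of those promoters. A match or its absence describes these letters in this window only. Between transcripts, 82.9% of the 150-base windows of Cyp3a41a also occur in Cyp3a41b, so counts of these 2 genes may have been split between them, while Cyp3a16 and Cyp3a44 shared no window with any other transcript.

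Cyp3a16 was at 10.2, 39.1, 60.6, 33.3 and 66.3 TPM in Gramd1c+/+ and at 1.71, 1.76, 5.78 and 0.63 TPM in Gramd1c-/- mice on low cholesterol. Under high dietary cholesterol it was at 0.57, 7.49, 18.8, 1.15 and 1.52 TPM in Gramd1c+/+ and at 78.2, 66.4, 36.2, 8.58 and 0.13 TPM in Gramd1c-/- mice. The genotypes did not overlap on low cholesterol, and on high cholesterol 4 of the 5 Gramd1c-/- mice lay above the median Gramd1c+/+ mouse while replicate 5 was the lowest of all 19 mice. The log2 difference between the genotypes was -4.08 (standard error 1.203) on low and 2.498 (standard error 1.003) on high cholesterol, neither called. The interaction was 6.58 (standard error 1.56, 95% interval 3.31 to 9.84, unadjusted p = 0.000441, adjusted p = 0.99993 in edgeR). It ranged from 5.71 to 8.02 over the settings tried, and was 7.15 without the 3 libraries that stood apart.

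Cyp3a41a was at 112, 225, 358, 318 and 329 TPM in Gramd1c+/+ and 24.0, 15.0, 100.1 and 12.1 TPM in Gramd1c-/- mice on low cholesterol. On high cholesterol it was at 1.57, 109, 104, 15.0 and 63.9 TPM against 139, 331, 136, 122 and 0.95 TPM. Here too the genotypes were apart on low cholesterol and overlapped on high cholesterol, where wild-type mouse 1 and knockout mouse 5 on the high diet were near 1 TPM. The interaction was 3.98 (standard error 1.41, 1.04 to 6.93, unadjusted p = 0.0106).

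Cyp3a41b, far lower in level, was at 2.72, 6.12, 12.7, 15.6 and 12.0 TPM in Gramd1c+/+ and 0.35, 0.20, 2.35 and 0.30 TPM in Gramd1c-/- mice on low cholesterol. In mice fed high cholesterol it was listed at 0 in replicate 1 and at 2.55, 5.67, 0.50 and 0.73 TPM in the other Gramd1c+/+ mice, and at 5.92, 18.1, 6.18, 1.99 and 0.14 TPM in Gramd1c-/- mice. The interaction was 5.21 (standard error 1.47, 2.14 to 8.28, unadjusted p = 0.00206).

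Cyp3a44 was at 83.2, 137, 175, 177 and 145 TPM in Gramd1c+/+ and 43.0, 26.2, 50.4 and 12.7 TPM in Gramd1c-/- mice on low cholesterol, again without overlap. In mice fed high cholesterol it was at 8.88, 54.3, 64.4, 8.66 and 31.1 TPM against 134, 68.6, 42.9, 63.8 and 4.09 TPM. The interaction was 2.87 (standard error 0.97, 0.84 to 4.89, unadjusted p = 0.00785).

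Exact permutation of the genotype labels within each diet gave two-sided p-values of 0.00413 for Cyp3a16, 0.00469 for Cyp3a41b, 0.0244 for Cyp3a44 and 0.0406 for Cyp3a41a on the scale log2(TPM + 0.5). This test is exact only where genotype has no effect on either diet, and these values are not adjusted. It was run for the 22 genes of the study's list, of which 7 had a p below 0.05, and not for all genes. Part of that list was chosen for genotype differences on low cholesterol in these same mice. The p-values of this test, here and below, are therefore not independent support for an interaction. A set of 13 of these 22 genes had no overlap of the genotypes on low cholesterol (6 lower, 7 higher in Gramd1c-/- mice, against 1.04% and 0.693% of all genes) and 1, Gramd1c, on high cholesterol (lower, against 0.0599% of all genes). Over all genes, 1.72% were apart on low and overlapped on high cholesterol. That count describes a list that was chosen on low cholesterol.

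Other members of the Cyp3a family did not share this. Of 9 members 8 were tested and Cyp3a57 was filtered out for low counts. The 4 named above were the 4 with an unadjusted p below 0.05, and the other 4 tested had interactions of -0.49 to -0.01. Cyp3a11, the main inducible form, was at 1076 to 1552 TPM in Gramd1c+/+ and 1242 to 1785 TPM in Gramd1c-/- mice on low cholesterol, and at 1471 to 2881 and 929 to 2102 TPM on high cholesterol. Its interaction was -0.49 (-1.08 to 0.11). The family's median was 1.43, from a median genotype effect of -1.18 on low and 0.33 on high cholesterol, and 1.90 without the 3 libraries that stood apart.

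**Figure D3:**
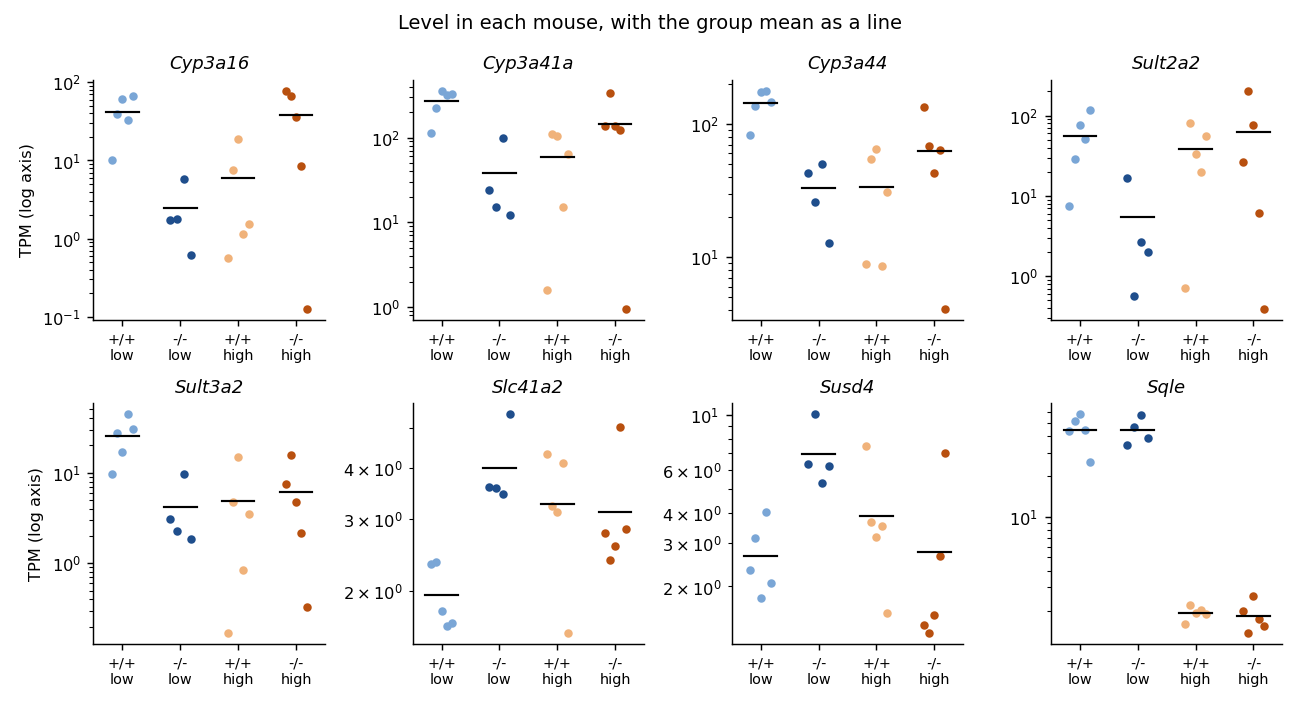
TPM of 8 genes in each mouse, on a log axis of its own for each gene, by genotype (Gramd1c+/+ or -/-) and diet (low or high cholesterol), with a line at the group mean. Cyp3a16, Cyp3a41a, Cyp3a44 and Sult3a2 show Gramd1c-/- points under all Gramd1c+/+ points on low cholesterol, Slc41a2 and Susd4 show them above, and on high cholesterol the genotypes overlap in all 8.

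Sulfotransferases, which conjugate steroids, bile acids and phenols with sulfate, leaned the same way, mainly through Sult2a1 to Sult2a6 and the Sult3a genes. Sult2a2, a hydroxysteroid sulfotransferase, was at 7.57, 29.2, 77.2, 50.7 and 117 TPM in Gramd1c+/+ and 16.7, 0.57, 2.64 and 1.98 TPM in Gramd1c-/- mice on low cholesterol. The high diet values were 0.71, 81.7, 33.1, 19.8 and 55.4 TPM against 26.3, 204, 75.9, 6.09 and 0.39 TPM. The genotypes overlapped on both diets, on low cholesterol through replicate 1 of each. The interaction was 3.95 (standard error 1.63, 0.54 to 7.36, unadjusted p = 0.0253), and 2.64 without knockout mouse 2 on the high diet, the highest value. In Sult2a2, 20.6% of the 150-base windows occur in other transcripts.

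Sult3a2 was at 9.67, 27.5, 16.7, 44.1 and 30.2 TPM in Gramd1c+/+ and 3.11, 2.30, 9.57 and 1.84 TPM in Gramd1c-/- mice on low cholesterol. Under high dietary cholesterol it was at 0.17, 4.76, 14.9, 0.85 and 3.48 TPM against 7.51, 15.7, 4.71, 2.17 and 0.33 TPM. The groups on low cholesterol were separated by 9.67 against 9.57 TPM, a narrow gap. The interaction was 2.75 (standard error 1.22, unadjusted p = 0.0352) and the exact permutation test gave p = 0.0371. Sult2a4, at up to 4.29 TPM and listed at 0 in 3 Gramd1c-/- mice on low cholesterol, had an unadjusted p of 0.0478, and Sult2a5 one of 0.0973.

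Of 15 tested sulfotransferases (of 17) 14 had a positive interaction, beside 52.9% of all genes, and the median was 1.23. Sult2a1 to Sult2a6, Sult3a1 and Sult3a2 had interactions of 1.23 to 3.95, and the other tested members of -0.05 to 0.58. Sult2a1, Sult2a2 and Sult3a1 are also on the female-biased list below, so these lists are not separate evidence. The median genotype effect was -0.90 on low and 0.17 on high cholesterol. The list median was between 0.59 and 2.39 over the settings, and 1.63 without the 3 libraries that stood apart.

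Genes known to be higher in female liver were set beside genes known to be higher in male liver. Of 24 tested female-biased genes, 20 had a positive interaction, 1 with an unadjusted p below 0.05 (Sult2a2), and the median was 0.52. Hao2, a peroxisomal hydroxyacid oxidase, was at 10.7, 24.9, 18.1, 13.1 and 31.2 TPM in Gramd1c+/+ and 6.47, 2.76, 10.8 and 4.46 TPM in Gramd1c-/- mice on low cholesterol. On high cholesterol it was at 1.91, 29.9, 13.6, 15.8 and 18.2 TPM against 18.4, 46.6, 27.6, 9.28 and 1.41 TPM. The Gramd1c-/- mice were mostly below on low cholesterol, with 1 overlapping mouse, and the genotypes overlapped on high cholesterol. The log2 difference between the genotypes on high cholesterol was 0.29 (standard error 0.63). Its interaction was 1.95 (-0.02 to 3.92). A1bg, a plasma glycoprotein, had 2.17 (-0.81 to 5.14).

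Of 19 tested male-biased genes 2 had a positive interaction, 1 negative member had an unadjusted p below 0.05, and the median was -0.51. That member was Cyp7b1, the oxysterol 7α-hydroxylase of the acidic bile acid pathway. It was at 46.5, 53.9, 51.1, 75.4 and 34.3 TPM in Gramd1c+/+ and 75.5, 117, 91.1 and 72.2 TPM in Gramd1c-/- mice on low cholesterol. In mice fed high cholesterol it was at 84.8, 44.7, 47.2, 45.0 and 44.0 TPM against 47.2, 37.1, 30.9, 50.9 and 89.1 TPM. The interaction was -0.88 (-1.75 to -0.01, unadjusted p = 0.0482). Others with small p were Nox4, a superoxide-producing oxidase, at -0.93 (-1.89 to 0.02), Cyp4a12a, an arachidonate hydroxylase, at -2.60 (-5.83 to 0.62), and C6, a complement component, at -0.87 (-2.05 to 0.31). Cyp4a12a was at -0.01 without wild-type mouse 1 on the high diet, and 25.6% of its 150-base windows occur in Cyp4a12b.

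The lists were also summed up per mouse, as the mean log2 CPM (counts scaled to library size) of the members after each gene was centred over the 19 mice. The female-biased level was 0.18, 0.19, 0.89, 0.36 and 0.89 in Gramd1c+/+ and 0.08, -0.62, 0.07 and -0.98 in Gramd1c-/- mice on low cholesterol. The high diet values were -1.45, 0.65, 0.45, -0.14 and 0.21 against 0.32, 0.67, 0.51, -0.08 and -2.19. Wild-type mouse 1 and knockout mouse 5 on the high diet were the lowest of all mice, and the same 2 mice were the highest for male-biased genes, at 1.17 and 1.62. Those single mice set much of the spread on high cholesterol, where the group SD of the female-biased level was 0.83 and 1.17, against 0.36 and 0.53 on low cholesterol. The male-biased median was -0.13 without the first of them, and -1.01 without the 3 libraries that stood apart. The female-biased median was 0.31 and 0.90 in these settings. Whether fewer cells of a type or less RNA per cell lies behind a level cannot be told apart in bulk tissue.

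**Figure D4:**
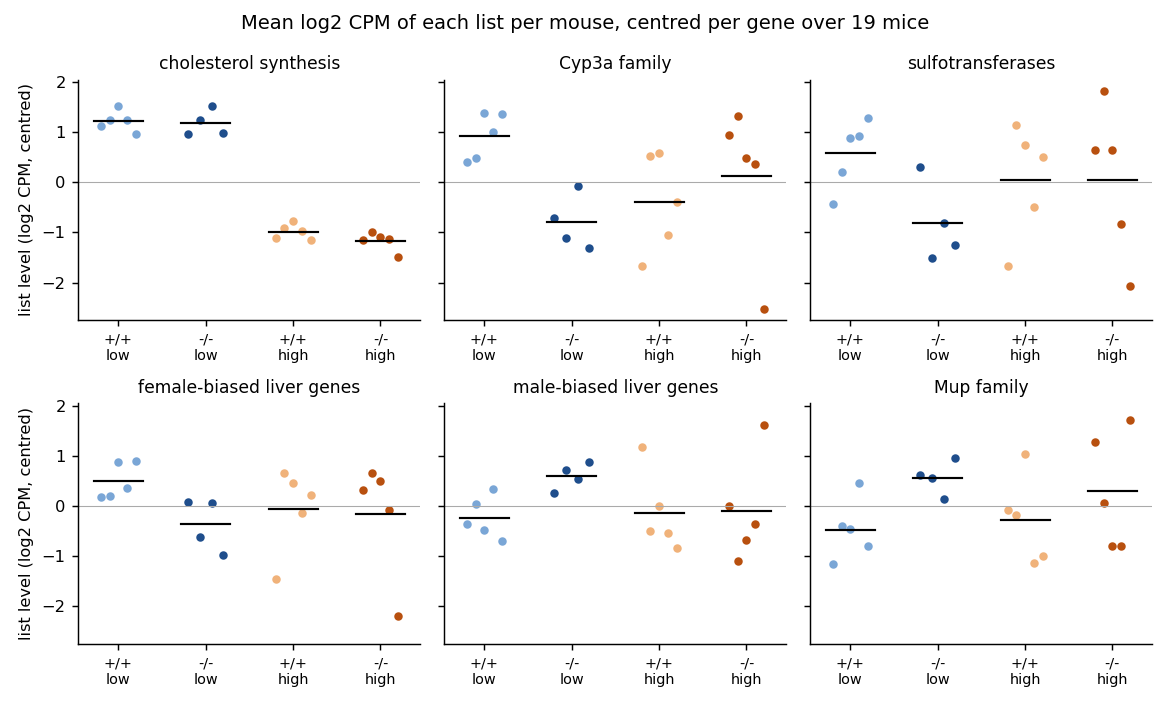
Mean log2 CPM of the tested members of 6 gene lists in each mouse, centred per gene over 19 mice, by genotype (Gramd1c+/+ or -/-) and diet, with a line at the group mean. Cholesterol synthesis separates the diets at 1.22 and 1.18 on low against -0.99 and -1.17 on high cholesterol, while the Cyp3a, sulfotransferase and sex-biased lists spread more widely, most of all on high cholesterol.

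Growth hormone signalling genes, including the receptor Ghr, the kinase Jak2, Stat5a and Stat5b, and the feedback inhibitors Socs2 and Cish, gave no unadjusted p below 0.05 among 14 tested. Their median was -0.14, with 4 positive. Bcl6, a repressor that is higher in male liver, had -0.54 (-1.52 to 0.45), which became 0.19 without knockout mouse 4 on the low diet, at 11.3 TPM.

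Major urinary protein genes, lipocalins that are abundant in male liver and of which 4 are on the study's list, did not lean either way in the interaction. Of 19 tested (of 22) 10 had a positive interaction, none had an unadjusted p below 0.05, and the median was 0.00 (-0.63 to 0.46 over the settings). The median genotype effect was 0.76 on low and 0.87 on high cholesterol, with 16 and 18 of the 19 higher in Gramd1c-/- mice. Mup7 was at 2.32, 5.22, 2.44, 15.6 and 3.24 TPM in Gramd1c+/+ and 50.3, 133, 29.5 and 76.6 TPM in Gramd1c-/- mice on low cholesterol. The high diet values were 74.8, 5.17, 8.82, 2.19 and 1.16 TPM against 12.5, 3.95, 1.79, 8.27 and 204 TPM. The genotypes were apart on low and overlapped on high cholesterol, where the highest mice were wild-type mouse 1 and knockout mouse 5 on the high diet. The interaction was -2.31 (standard error 1.63, -5.72 to 1.10) and the exact permutation test gave p = 0.149. For Mup20, which encodes the male pheromone darcin, it was -0.98 (-2.70 to 0.74), for Mup11 -1.25 (-3.93 to 1.42) and for Mup12 -0.76 (-2.85 to 1.34). The share of 150-base windows that also occur in other transcripts was 31.1% for Mup20, 72.9% for Mup7, 75.9% for Mup12 and 78.2% for Mup11, so counts of these single members are uncertain.

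Slc41a2 and Susd4, 2 single genes on the study's list, had negative interactions. Slc41a2, a magnesium transporter at chr10:83230848-83337882, was at 2.32, 2.36, 1.79, 1.64 and 1.68 TPM in Gramd1c+/+ and 3.59, 3.57, 3.45 and 5.39 TPM in Gramd1c-/- mice on low cholesterol. Under high dietary cholesterol it was at 4.31, 3.22, 3.12, 4.10 and 1.58 TPM against 2.77, 2.38, 2.58, 5.02 and 2.84 TPM. The groups were apart on low and overlapped on high cholesterol. The interaction was -1.18 (standard error 0.34, -1.90 to -0.46, unadjusted p = 0.00276), the exact permutation test gave p = 0.0298, and the value was between -1.38 and -0.79 in the settings tried.

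Susd4, an inhibitor of complement at chr1:182763860-182896591, was at 2.33, 3.16, 1.79, 4.02 and 2.07 TPM in Gramd1c+/+ and 6.34, 10.1, 5.27 and 6.18 TPM in Gramd1c-/- mice on low cholesterol. On high cholesterol it was at 7.49, 3.65, 3.19, 3.52 and 1.55 TPM against 1.40, 1.29, 1.54, 2.66 and 7.004 TPM. Apart from replicate 5, every Gramd1c-/- mouse on high cholesterol was below at least 4 of the 5 Gramd1c+/+ mice. The interaction was -1.92 (standard error 0.65, -3.27 to -0.57, unadjusted p = 0.00765), and the exact permutation test gave p = 0.00951. Without replicate 5 Susd4 had the smallest adjusted p of that fit, 0.353 in edgeR. Slc22a28, an organic anion transporter, had -1.30 (-3.19 to 0.59), and 28.5% of its 150-base windows occur in Slc22a30.

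Mitochondrial transcripts leaned negative. All 13 mitochondrial mRNAs had a negative interaction, none with an unadjusted p below 0.05, with a median of -0.35 from a median genotype effect of 0.33 on low and -0.08 on high cholesterol. They are processed from shared precursors, so they are not separate measurements. For mt-Nd2, a subunit of complex I, the interaction was -0.42 (-0.88 to 0.05). Of 17 tested mitochondrial tRNAs (of 22) 2 were positive, with a median of -0.38. Libraries were made from poly(A)-selected RNA, which captures tRNAs poorly, so these levels need not follow the tRNA pool.

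The cysteine tRNA mt-Tc was at 52.2, 62.6, 85.5, 57.9 and 76.7 TPM in Gramd1c+/+ and 97.2, 99.9, 110 and 142 TPM in Gramd1c-/- mice on low cholesterol. In mice fed high cholesterol it was at 102, 75.5, 152, 94.4 and 108 TPM against 103, 144, 73.0, 62.2 and 56.9 TPM. The groups were apart on low and overlapped on high cholesterol. The interaction was -1.08 (-1.92 to -0.25, unadjusted p = 0.0137). For mt-Tq, the glutamine tRNA on the study's list, it was -1.35 (-2.73 to 0.04; exact permutation test, p = 0.0685), and for mt-Ti, the isoleucine tRNA, -0.38 (-1.69 to 0.92). mt-Tq and mt-Ti lie on opposite strands and overlap by 3 bases.

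**Figure D5:**
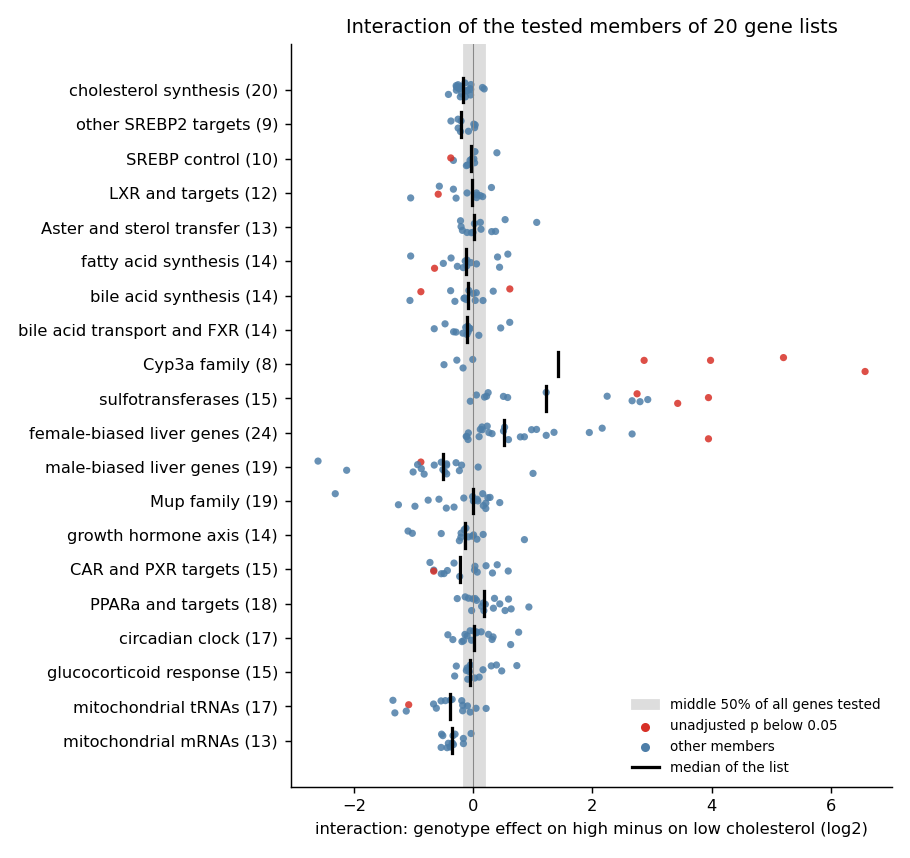
Interaction (log2, horizontal) of each tested member of 20 gene lists, with the number tested in parentheses, red for an unadjusted p below 0.05, a black line at the list median and the middle 50% of all genes tested in grey. The Cyp3a family (median 1.43) and sulfotransferases (1.23) extend to the right, and cholesterol synthesis (-0.17) stays close to 0.

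Outside these lists, the smallest p-values belonged to genes of no common list. On the positive side these were, besides Cyp3a16 and Cyp3a41b, Strada (0.97, standard error 0.26), a pseudokinase that activates LKB1, Mapk13 (5.05, standard error 1.60), a p38 kinase, Naip5 (1.53, standard error 0.50), a sensor of bacterial flagellin, Lipo3 (0.76), a lipase, Adcy4 (0.95), an adenylyl cyclase, Ly6d (4.33), a lymphocyte and epithelial surface protein, Dph7 (0.53), an enzyme of diphthamide synthesis, and Gm44202 (3.29). Gm44202 was near the floor on low cholesterol, with a mean of 0.35 TPM in Gramd1c+/+ and 0.037 TPM in Gramd1c-/- mice. Strada was at 0.73, 1.48, 1.07, 1.37 and 1.204 TPM in Gramd1c+/+ and 0.72, 0.73, 0.59 and 0.92 TPM in Gramd1c-/- mice on low cholesterol. The high diet values were 0.85, 0.87, 1.05, 1.22 and 1.01 TPM against 0.94, 1.07, 1.65, 1.42 and 1.505 TPM. The genotypes overlapped on both diets, and the span of Strada overlaps that of Ccdc47 on the same strand by 4761 bases. On low cholesterol the highest value of Strada, 1.48 TPM, was in the library with adrenal transcripts. On high cholesterol its highest values, 1.65 and 1.505 TPM, were in knockout mice 3 and 5, which also stood apart.

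Mapk13 and Ly6d rest on libraries that stood apart. Mapk13 was at 5.71 TPM in the library with adrenal transcripts and at 5.15 TPM in the library with bile duct and pancreas transcripts, and at 0.04 to 0.57 TPM in the other 17 mice. Ly6d was at 222 TPM in the latter and at 1.38 to 9.19 TPM in the other 18. Without the 3 libraries Mapk13 no longer passed the filter on low counts and Ly6d had 1.05. Naip5 had 0.75 in that setting, and in all mice its highest value, 2.40 TPM, was in knockout mouse 5 on the high diet.

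On the negative side they were Cxcl14 (-1.31, standard error 0.34), a chemokine, Nudc-ps1 (-1.87), Slc41a2, Cacna1d (-1.03), a calcium channel subunit, Rnf170-ps (-1.94), Susd4, Plcb1 (-0.67), a phospholipase C, Raet1d (-1.43), a ligand of the NKG2D receptor, Traf3 (-0.73), an adaptor of innate immune signalling, and Arsa (-0.73), the lysosomal arylsulfatase A. Cxcl14 was at 1.97, 1.70, 1.34, 1.63 and 2.44 TPM in Gramd1c+/+ and 2.81, 1.99, 2.40 and 2.25 TPM in Gramd1c-/- mice on low cholesterol. Under high dietary cholesterol it was at 1.78, 2.15, 3.17, 2.40 and 2.75 TPM against 1.36, 0.89, 1.99, 1.8 and 0.91 TPM. The genotypes overlapped on both diets, on high cholesterol through 2 Gramd1c-/- mice. Nudc-ps1 and Rnf170-ps are pseudogenes that share 56.2 and 56.6% of their 150-base windows with Nudc and Rnf170, and Rnf170-ps lies within the span of Cyp2b13, so their counts are uncertain.

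Bile acid genes gave 1 gene in each direction with an unadjusted p below 0.05 among 14 of synthesis. Hsd3b7, the steroid dehydrogenase that follows 7α-hydroxylation, was at 10.9, 16.6, 11.3, 11.7 and 9.78 TPM in Gramd1c+/+ and 7.94, 8.79, 8.22 and 12.3 TPM in Gramd1c-/- mice on low cholesterol. On high cholesterol it was at 9.94, 7.76, 7.52, 14.6 and 10.9 TPM against 9.83, 15.5, 13.4, 12.3 and 11.1 TPM. The genotypes overlapped on both diets, the highest Gramd1c+/+ value on low cholesterol was that of the library with adrenal transcripts, and 83.2% of the 150-base windows of Hsd3b7 occur in other annotated genes. Its interaction was 0.62 (0.17 to 1.06, unadjusted p = 0.00938). Cyp7a1, the rate-limiting enzyme of the classical pathway, had -1.06 (-2.68 to 0.56), with 5.25 to 71.4 TPM in the 5 Gramd1c+/+ mice on low cholesterol. The list median was -0.09. Of 14 tested genes of bile acid transport and FXR signalling 3 were positive, none had an unadjusted p below 0.05, and the median was -0.10.

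Few genes of the other lists of liver function had an unadjusted p below 0.05, beside 1.66% of all genes tested. At that share a short list is likely to hold none. Having none, here or in the lists above, therefore says little about the members. PPARα and its targets of fatty acid oxidation had 13 of 18 positive with a median of 0.18 and none below 0.05. The circadian clock (17 genes, median 0.01), the glucocorticoid response (15, -0.05), autophagy (16, 0.01), the acute phase (18, 0.04), the interferon response (14, -0.09), the stress response of the endoplasmic reticulum and integrated stress response (14, 0.06), proliferation (8, 0.05) and periportal genes (10, -0.04) had none. All 16 autophagy genes had an interval within -1 to 1. Of 15 genes of the xenobiotic receptors CAR and PXR, Gstm1, a glutathione transferase, had -0.66 (-1.21 to -0.11, unadjusted p = 0.0210), and the list median was -0.23. Of 10 pericentral genes Slc1a2, a glutamate transporter, had -0.68 (-1.26 to -0.10, unadjusted p = 0.0243), with a list median of -0.21.

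Markers of other cell types moved mainly with single libraries. The summed level of 8 Kupffer cell markers was 378 to 618 TPM in Gramd1c+/+ and 471 to 578 TPM in Gramd1c-/- mice on the low diet. The ranges on the high diet were 253 to 596 TPM and 391 to 1137 TPM. Of these markers 7 had a positive interaction, with a median of 0.33 and none with an unadjusted p below 0.05, and the median was -0.08 without knockout mouse 4 on the high diet, which held the 1137 TPM. Among the bile duct markers Krt19 had 3.601 (0.51 to 6.69) with 120 TPM in knockout mouse 3 on the high diet and 0.56 to 3.06 TPM in the other 18, and -0.17 without that mouse. Among the adrenal markers Star had 4.11, with 84.0 TPM in wild-type mouse 2 on the low diet and 0.47 to 1.14 TPM in the rest of its group. Of 8 stellate cell markers 3 were positive with a median of -0.14, and they ranged from -0.70 for the collagen Col1a1 (-1.30 to -0.09, unadjusted p = 0.0255) to 0.86 for the filament Des (-0.05 to 1.76). Of 5 red cell markers 3 were positive with a median of 0.53, with the heme synthesis gene Alas2 at -0.91 (-1.74 to -0.07, unadjusted p = 0.0346) and the globin genes Hba-a1, Hbb-bs and Hbb-bt at 0.69, 0.53 and 0.87. The 6 hepatocyte markers had a median of -0.06. The part of these markers in the Cyp3a and sulfotransferase values was not tested.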

How the data were processed

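Liver RNA of 19 mice was sequenced after poly(A) selection (NEBNext Ultra, paired reads of 150 bases). The authors deposited raw counts per gene, 1 table for each mouse, made from reads aligned with STAR 2.5.2b to GRCm38 per the submitters' processing notes; the counting tool, its strand setting and its annotation were not given in the sources used here. TPM and log2 CPM were computed here from these counts and the listed gene lengths. Totals were 27149972 to 34669648 counts, and precision is limited by the number of mice. Counts were fitted over 4 groups with the quasi-likelihood test of edgeR 4.0.16 in R 4.3.3 (TMM, filterByExpr with a minimum count of 10), and p-values were adjusted by Benjamini-Hochberg over 15016 genes. The interaction was the contrast of both genotype effects. Standard errors were computed here as the size of the log2 difference over the square root of the test's F statistic. Intervals were built from them with the t distribution. Both are approximate, and over all genes tested the bounds reached -45.7 and 45.7. Exact permutation of genotype within diet (31752 arrangements, smallest p 3.15e-05) was run on log2(TPM + 0.5) for 22 genes. The script was tested on simulated data. Alternatives were other scaling, filters, DESeq2 1.42.0, limma 3.58.1, a replicate block, a term for sample numbering and leaving out mice. That term split the mice in 2 at the largest gap in the submitters' sample numbers, whose meaning was not given. With it the smallest adjusted p of the interaction was 0.9997 in edgeR. Named were the study's 22 genes, the 10 genes with the smallest p in each direction and up to 4 per list. The members and lists were chosen with earlier results of these data known. Results for some genes are not reported here.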

Additional observations from a re-analysis of the deposited data

Results flagged for a closer look

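Per-mouse levels of 29 genes, 116 groups in all, were searched for a highest or lowest mouse set far from the rest of its group (Dixon's 95% criterion), and 22 values were found. Chance flags about 1 in 20 groups of independent values, a rate that cannot be read against this count, since genes such as Krt19, Star, Mapk13 and Ly6d were known to rest on single mice when they were included and the same mice recur across genes. Among Gramd1c-/- mice on high cholesterol, replicate 5 was apart for Gramd1c at 3.61 TPM, Susd4 at 7.004 TPM, Mup7 at 203.5 TPM, Mup20 at 813 TPM and Slc22a28 at 19.1 TPM. Replicate 3 of that group was apart for Mapk13 at 5.15 TPM, Ly6d at 222 TPM and Krt19 at 120 TPM, and replicate 4 for Slc41a2 at 5.02 TPM. Among Gramd1c+/+ mice on high cholesterol, replicate 1 was apart for Cyp7b1 at 84.8 TPM, Mup7 at 74.8 TPM and Mup20 at 611 TPM.

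Among Gramd1c+/+ mice on low cholesterol, replicate 2 was apart for Mapk13 at 5.71 TPM, Star at 84.0 TPM and Hsd3b7 at 16.6 TPM, and replicate 4 for Mup7 at 15.6 TPM. Among Gramd1c-/- mice on low cholesterol, replicate 3 was apart for Cyp3a41a at 100.1 TPM, Cyp3a41b at 2.35 TPM and Sult3a2 at 9.57 TPM, replicate 1 for Sult2a2 at 16.7 TPM, and replicate 4 for Mup20 at 479.7 TPM and Slc41a2 at 5.39 TPM.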

How the results depend on the processing

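The interaction had 0 called genes under all settings run. The number of genes with an unadjusted p below 0.05 was 890 with no low-count filter and 443 with sample weights in limma-voom. It was 526 without the 3 libraries that stood apart (chosen after seeing the data), 403 without 2 of them, and 186 to 427 when single mice were left out. The fit without the filter and those that left out mice did not test the same genes. Their counts are therefore not directly comparable with the 250 of 15016. The sign turned for Gramd1c (-0.15 with sample weights, -0.088 without the 3 libraries, -0.084 without the 2, and -0.14 to 0.44 over single mice left out), Gramd1a (-0.014 without the 3, -0.060 without the 2, -0.019 to 0.52 over single mice), Krt19 (-0.38 without the 3, -0.17 to 3.93 over single mice), Krt7 (-0.26) and Cfd (-0.91), both without the 3. Over single mice left out it also turned for Sqle (-0.28 to 0.021), Hmgcs1 (-0.24 to 0.041) and Bcl6 (-0.77 to 0.19). On the TPM scale of the exact test the difference was positive for Sqle (0.54 TPM), Dhcr7 (1.14 TPM), mt-Ti (19.4 TPM) and Mup12 (1.34 TPM). Of 1318 list medians, 114 had another sign than in the report, over 21 of 40 lists. The cause of these changes was not tested. With the replicate number as a block, 175 genes had an unadjusted p below 0.05 in edgeR and 0 were called. Same-numbered mice did not deviate together on average (mean residual r -0.07 over 27 pairs, 5 of them over 0.1). That gives no sign that the numbers pair mice, but a mean over pairs cannot exclude it. The number of mice limits intervals to a median half-width of 0.58 on the log2 scale.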
